A study of Rattus norvegicus with 8 samples.

Results

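Genes of the glutathione and thioredoxin systems and of other antioxidant enzymes were measured in bone around titanium implants of normal and hyperlipidemic rats. Members were chosen by name from the table of gene loci: glutathione peroxidases (Gpx), glutathione S-transferases (Gst and Mgst), peroxiredoxins (Prdx) with sulfiredoxin (Srxn1), thioredoxins with their reductases and Txnip, superoxide dismutases (Sod) and catalase (Cat), the genes of glutathione synthesis and recycling, Nqo1, Nqo2, Hmox1, Hmox2, Nfe2l2 and Keap1. This gave 49 loci of 19120, in 8 families.

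All samples are femoral bone of male Wistar rats aged 12 to 13 weeks, taken within 1 mm of a titanium implant on day 10 after root-form implants had been set in both femoral shafts. The normal group (4 libraries) had a normal diet and the hyperlipidemic group (4 libraries) a high-fat diet, both for 8 weeks. No transgene or drug is named in either group, and nothing in the labels ties a library to an animal, so each p-value reflects how these libraries spread and nothing wider, and that spread may be technical. Values are FPKM, a level scaled to transcript length and library size, from RNA depleted of ribosomal RNA.

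Cells remove peroxides by passing electrons from NADPH to glutathione or to thioredoxin, and from there to peroxidases. Glutathione is made from cysteine, glutamate and glycine, and its first step, catalysed by glutamate-cysteine ligase, limits the rate. The transcription factor NRF2, encoded by Nfe2l2 and held down by KEAP1, induces many of these genes through the antioxidant response element. Red blood cells, which form in marrow, carry large amounts of peroxiredoxin 2, glutathione peroxidase 1 and catalase.

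The tissue label was checked against markers. Summed FPKM of 9 osteoblast markers lay between 2021 and 3216 in normal libraries and between 960.5 and 1731 in hyperlipidemic ones, without overlap. Col1a1 made up most of that sum (1252 to 1942 and 518.4 to 1055 FPKM), and a sum without it was not taken. Of the other osteoblast markers, Bglap alone had its groups apart. Summed FPKM of 12 erythroid markers was 6699 to 8773 and 7893 to 15905, most of it from the globin gene Hbb (5547 to 7062 and 6453 to 13261). Without Hbb, an omission chosen after seeing the values, the other 11 summed to 1152 to 2439 in normal and 1439 to 2688 in hyperlipidemic libraries. All 12 erythroid markers had a log2 change above 0 and none passed the test, while 8 of 9 osteoblast markers were below 0 and 1, Bglap, fell (log2 change -1.25, limma adjusted p = 0.0201). A marker also passed in each of 3 other lists: the osteoclast protease gene Ctsk fell (-1.69, 0.0441), and the adipocyte gene Adipoq (3.52, 0.0141) and the cartilage collagen gene Col2a1 (3.11, 0.0323) rose. Summed FPKM of the other lists had these ranges in normal and then hyperlipidemic libraries: 9993 to 12943 and 9984 to 12880 for neutrophil, 156.8 to 235.0 and 166.3 to 240.3 for macrophage, 95.9 to 237.2 and 212.1 to 412.3 for platelet, 117.9 to 140.5 and 44.1 to 103.1 for B cell, 334.4 to 602.3 and 149.9 to 307.3 for osteoclast markers. They were 52.1 to 123.2 and 109.5 to 410.1 for adipocyte, 0.822 to 8.25 and 11.2 to 91.0 for chondrocyte, and 0.193 to 21.8 and 1.85 to 75.6 for skeletal muscle markers. Hyperlipidemic replicate 1 gave the upper end of each of these sums. The other hyperlipidemic libraries lay at 109.5 to 145.1 for adipocyte, 11.2 to 32.4 for chondrocyte and 1.85 to 13.6 for muscle markers. Liver markers, of which 3 of 8 were in the table, reached a summed FPKM of at most 0.238. Lep and Plin4 of the adipocyte, Col9a2 and Comp of the chondrocyte and Mylpf of the muscle list were at 0 in all normal libraries. These are bulk samples, so fewer cells of a type and less RNA per cell cannot be told apart. The part of these cell types in the results below was not tested.

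By mean FPKM over the 8 libraries the order was Gpx1 (544), Prdx2 (371), Txn1 (161), Mgst1 (141) and Gpx3 (122), the 5 loci above 100 FPKM. At the other end 8 loci had a mean under 1 FPKM. Gstm6 (mean 0.0377) and Gstt2 (0.213) fell under the filter of a mean of 0.5 FPKM, and 47 loci were tested. A value of 0 stood in at least 1 library for 11 loci, and 8 of the tested members were listed at 0 in normal replicate 4. A listed 0 can be a failed estimate and is not read as absence.

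In the comparison of the groups, 1 member rose and none fell. The test was limma on log2(FPKM + 1) over all 13742 loci with a mean of at least 0.5 FPKM, with a call at a Benjamini-Hochberg adjusted p under 0.05. Gclc was the member called, 1 of 47, beside 20 of all loci called higher, which is 0.146%, and 171 called lower, 1.24% (either way 191, 1.39%). With each library scaled to the same total FPKM the split of calls over all loci was 164 higher (1.19%) and 144 lower (1.05%), and the members called were Gclc, Gstt3 and Sod1. That scaling lifted the median log2 change over all loci from 0.18 to 0.54. Log2 changes given below for equal total FPKM are to be read beside 0.54. Of the 47 members 32 had a log2 change above 0, or 68.1%, beside 65.0% of all loci. Their median log2 change was 0.20, beside 0.18 over all loci tested. An unadjusted p under 0.05 stood at 6 members, 5 higher (Gclc, Gstt3, Cat, Gsta4 and Sod1) and 1 lower (Gpx3), beside 13.0% of all loci, 8.61% higher and 4.40% lower. In 44 members the values of the groups overlapped. In 2, Gclc and Gstt3, all hyperlipidemic libraries lay above all normal ones, as in 4.19% of all loci, and in 1, Gpx3, all lay below, as in 3.75% (either way 7.94%).

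**Figure D1:**
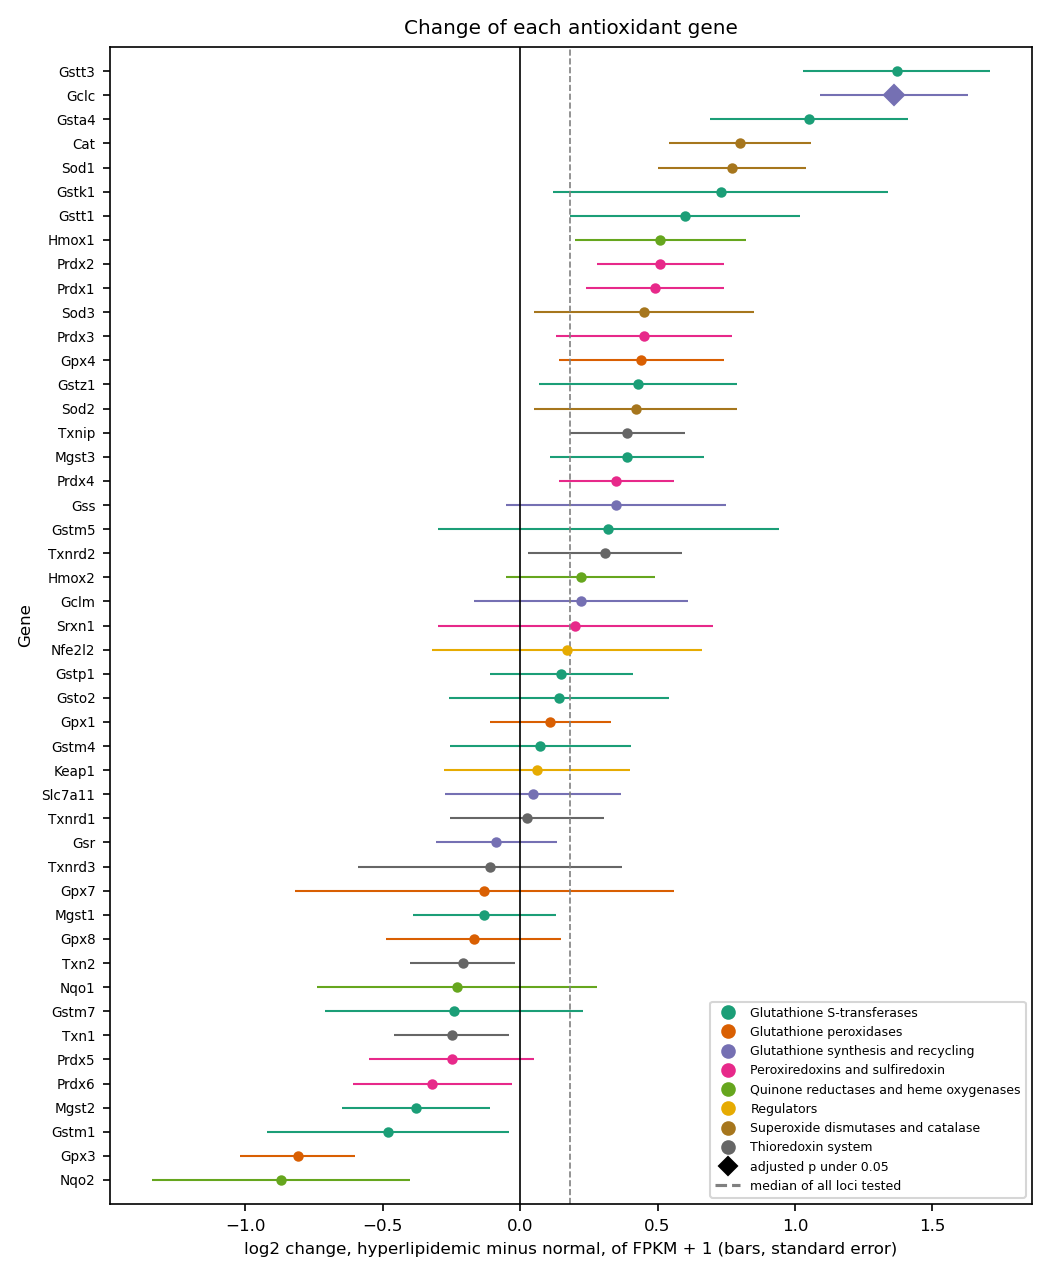
Log2 change of each of the 47 tested members (horizontal axis, hyperlipidemic minus normal, of FPKM + 1; bars, standard error), coloured by family and ordered by size. The diamond marks Gclc, the member that passed the test, and the dashed line is the median of all loci tested, 0.18.

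Glutathione synthesis held the member that rose. Gclc encodes the catalytic subunit of glutamate-cysteine ligase (chromosome 8, 85059051 to 85097468 on Rnor_6.0). In order of replicate, its FPKM was 9.33, 13.0, 10.0 and 6.46 in the normal libraries and 25.0, 17.7, 32.9 and 29.8 in the hyperlipidemic libraries. Every hyperlipidemic library was above every normal one, with replicate 2 the lowest of its group. The means were 9.69 ± 2.67 and 26.4 ± 6.59 FPKM (SD, n = 4 per group), 2.72-fold higher between means, with a log2 change of 1.36 (SE 0.27, limma adjusted p = 0.0371). The authors' deposited table gives Gclc a fold change of 2.21 with a q-value of 0.389 and marks it as up. Leaving out normal replicate 1, 3 or 4, or else hyperlipidemic replicate 1, 3 or 4, ended the Gclc call (limma adjusted p 0.0708 to 0.153), and the log2 change lay between 1.19 and 1.53 over all 8 omissions. Among loci over 1000 bp, which include all 49 members, 3 of 11892 were called (0.0252%) and Gclc was not among them (adjusted p = 0.175).

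Gclm encodes the modifier subunit, which raises the affinity of the ligase for its substrate. It was at 48.8, 16.6, 39.1 and 26.5 FPKM in normal libraries and at 31.2, 19.8, 56.8 and 45.0 FPKM in hyperlipidemic ones. The groups overlapped (log2 change 0.22, SE 0.39, adjusted p = 0.821), and the hyperlipidemic libraries stood in the same order as for Gclc. The difference between the changes of Gclc and Gclm was not tested. The ratio of Gclc to Gclm FPKM within a library was 0.191, 0.782, 0.256 and 0.244 in normal and 0.802, 0.896, 0.579 and 0.661 in hyperlipidemic libraries. The groups overlapped through normal replicate 2, the only normal library within the hyperlipidemic range. A scaling factor of a whole library cancels in this ratio.

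The other genes of synthesis and recycling had overlapping groups. Gsr, the reductase that regenerates glutathione, was at 23.7, 27.5, 29.0 and 19.5 FPKM in normal libraries and 28.3, 21.3, 18.1 and 26.2 FPKM in hyperlipidemic libraries, one range (log2 change -0.087, adjusted p = 0.883). Gss, the second enzyme of synthesis, was at 1.91 ± 1.35 and 2.36 ± 0.495 FPKM. Slc7a11, the cystine importer and a well known NRF2 target, was at 0.537 ± 0.461 and 0.542 ± 0.0857 FPKM, one of the low members. In this family of 5, 1 rose and 4 did not pass.

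Among glutathione peroxidases the secreted enzyme had the groups apart and the intracellular ones did not. Gpx3, which encodes the plasma glutathione peroxidase (chromosome 10, 40247436 to 40255422), was at 212, 145, 124 and 147 FPKM in normal libraries and at 94.2, 91.5, 78.8 and 86.6 FPKM in hyperlipidemic ones. All 4 hyperlipidemic values were below all 4 normal ones. The means were 157 ± 38.0 and 87.8 ± 6.79 FPKM, 1.79-fold lower between means, but the change did not pass over all loci (log2 change -0.81, SE 0.21, adjusted p = 0.137). On leaving out each library its log2 change stayed between -0.91 and -0.65, and the adjusted p was between 0.0593 and 0.385. With equal total FPKM its log2 change was -0.40 (limma adjusted p = 0.408), with median-of-ratios scaling -0.97 (0.0871) and with quantile normalization -0.66 (0.175). The medians over all loci under these settings were 0.54, 0.052 and 0.053. The summed osteoblast, osteoclast and B cell markers were also lower without overlap in the hyperlipidemic group, and their part in the Gpx3 values was not tested. Those sums lean on few genes. Only Col1a1 and Bglap of the osteoblast markers had groups apart, and only Ctsk of the osteoclast markers (191.9 to 389.9 and 56.4 to 148.8 FPKM). Of the B cell markers, Blnk, Igll1 and Ebf1 did. Mmp9 is counted as an osteoclast and as a neutrophil marker.

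Gpx1, the main cytosolic glutathione peroxidase and the most abundant member, was at 613, 530, 485 and 460 FPKM in normal libraries and at 558, 443, 628 and 632 FPKM in hyperlipidemic ones. The groups overlapped (log2 change 0.11, SE 0.22, adjusted p = 0.850; -0.062 under median-of-ratios scaling). The ratio of Gpx1 to Gpx3 FPKM within a library, a pair chosen after the values were seen and given with no test, ran from 2.90 to 3.91 in normal and from 4.84 to 7.97 in hyperlipidemic libraries. Gpx4, which reduces lipid hydroperoxides in membranes, was at 19.5, 49.9, 51.0 and 41.8 FPKM in normal and at 61.7, 43.2, 53.4 and 50.5 FPKM in hyperlipidemic libraries. Normal replicate 1 had the lowest Gpx4 value (log2 change 0.44, adjusted p = 0.540; without that library the groups still overlapped). The endoplasmic reticulum members Gpx7 and Gpx8 were at 6.25 ± 7.07 and 3.35 ± 0.738 FPKM, and at 7.44 ± 3.36 and 6.05 ± 0.789 FPKM, with Gpx7 at 16.4 FPKM in normal replicate 1 and listed at 0 in normal replicate 4.

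**Figure D2:**
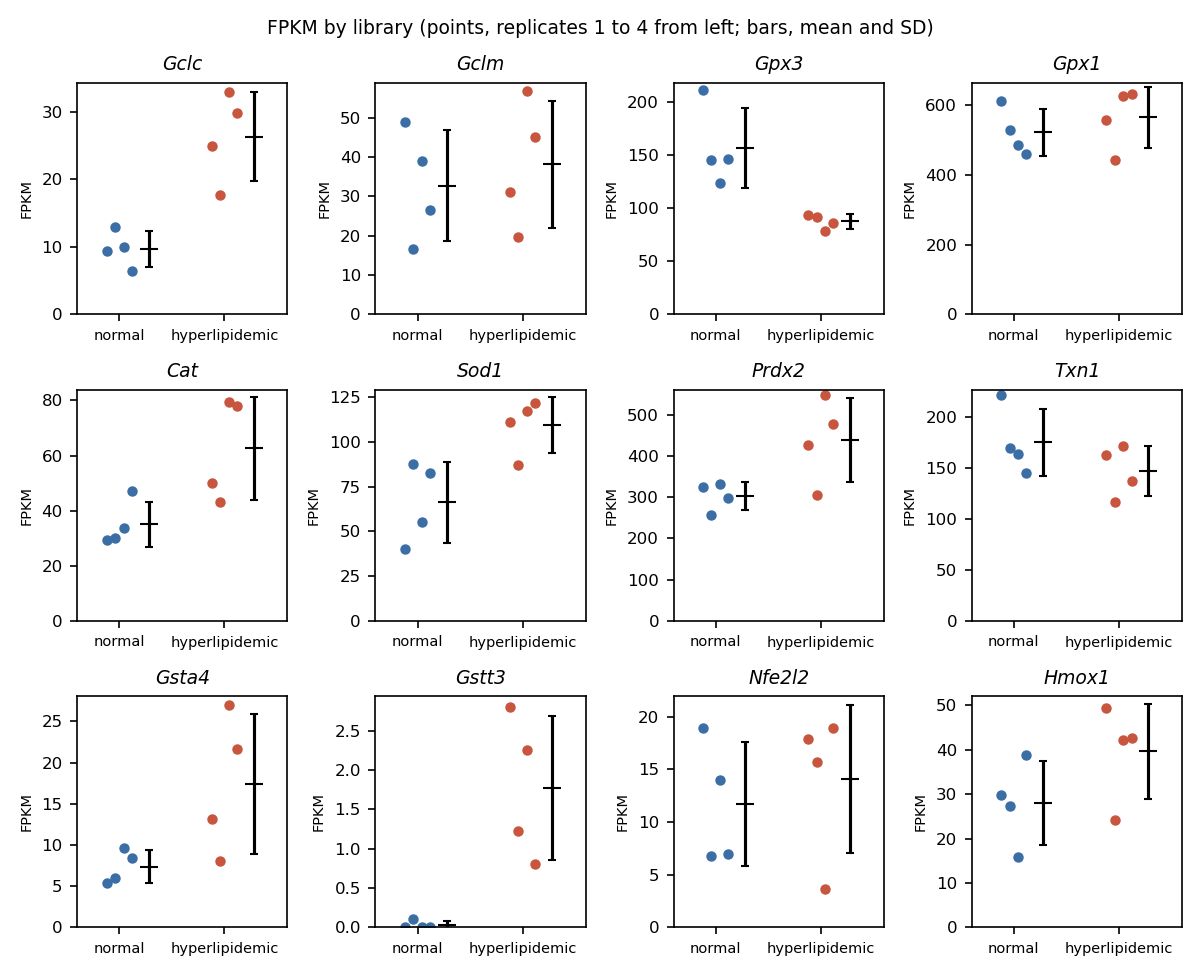
FPKM of 12 members in each library (vertical axis, FPKM from 0; points, replicates 1 to 4 from left in each group; black bars, mean and SD). Gclc, Gpx3 and Gstt3 have groups apart, whereas Gclm, Gpx1 and Txn1 overlap.

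Superoxide dismutases and catalase were the family whose summed FPKM did not overlap between groups. Their sum was 78.2, 139, 113 and 139 FPKM in normal and 180, 149, 230 and 215 FPKM in hyperlipidemic libraries. All 4 members had a log2 change above 0, with a median of 0.61, and none passed. Cat, which splits hydrogen peroxide in peroxisomes and red cells, was at 29.3, 30.1, 33.8 and 47.0 FPKM in normal and at 50.1, 43.3, 79.3 and 77.8 FPKM in hyperlipidemic libraries. Only hyperlipidemic replicate 2 was under the highest normal value (1.79-fold between means; log2 change 0.80, SE 0.26, adjusted p = 0.253).

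Sod1, the cytosolic copper and zinc dismutase, was at 40.1, 87.7, 55.2 and 82.6 FPKM in normal and at 111, 87.0, 117 and 122 FPKM in hyperlipidemic libraries. Again hyperlipidemic replicate 2 alone lay within the normal range (log2 change 0.77, SE 0.27, adjusted p = 0.284). Sod1 passed under 1 setting, equal total FPKM (log2 change 1.18, adjusted p = 0.0338). Sod2, the mitochondrial manganese enzyme, was at 8.85, 20.5, 23.0 and 9.34 FPKM in normal and at 16.6, 17.2, 32.7 and 14.7 FPKM in hyperlipidemic libraries. Its normal values fell into a low and a high pair, and the groups overlapped (adjusted p = 0.616). The extracellular enzyme Sod3 was at 0.228 ± 0.278 and 0.793 ± 0.842 FPKM, with 3 libraries listed at 0.

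Peroxiredoxins, most of which reduce peroxides with electrons from thioredoxin, gave no call, and 4 of the 6 had a log2 change above 0 (median 0.40). Prdx2, the abundant peroxiredoxin of red cells, was at 325, 256, 333 and 297 FPKM in normal and at 428, 306, 547 and 477 FPKM in hyperlipidemic libraries. As with Cat and Sod1, 3 hyperlipidemic libraries were above all normal ones and replicate 2 was not (log2 change 0.51, SE 0.23, adjusted p = 0.392). Prdx1, the widely expressed cytosolic form, was at 67.7, 56.5, 36.3 and 38.2 FPKM in normal and at 59.8, 56.5, 88.8 and 70.0 FPKM in hyperlipidemic libraries. Its groups overlapped (log2 change 0.49, adjusted p = 0.435).

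The remaining peroxiredoxins differed in sign without passing. Prdx4 of the endoplasmic reticulum (25.2 ± 2.87 and 32.8 ± 6.28 FPKM) and Prdx3 of mitochondria (20.8 ± 10.3 and 26.5 ± 3.09 FPKM) had positive log2 changes of 0.35 and 0.45. Prdx5, a peroxiredoxin of several organelles, was at 148.5, 63.3, 64.7 and 53.4 FPKM in normal libraries and 69.2, 63.6, 62.6 and 58.3 FPKM in hyperlipidemic libraries, so that normal replicate 1 alone stood apart (log2 change -0.25, but 0.16 with equal total FPKM and 0.071 without normal replicate 1). Prdx6, which acts on phospholipid hydroperoxides, was at 28.2 ± 12.3 and 21.3 ± 3.8 FPKM (log2 change -0.32, but 0.080 with equal total FPKM). Srxn1, which repairs overoxidised peroxiredoxins, was at 3.31 ± 2.38 and 3.16 ± 0.570 FPKM.

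In order of replicate, the summed FPKM of erythroid markers was 8773, 6699, 8710 and 7860 in the normal libraries and 14033, 7893, 15827 and 15905 in the hyperlipidemic libraries. Without Hbb the sum was 2439, 1152, 1648 and 1496 in normal and 2103, 1439, 2688 and 2644 in hyperlipidemic libraries, so that normal replicate 1 was above hyperlipidemic replicate 1. Hyperlipidemic replicate 2 was the lowest of its group for both sums and for Gclc, Cat, Sod1, Prdx2, Gpx1, Gclm and Gsta4. They are among 18 of the 47 tested members lowest in that library, and replicate 3 was also lowest for 18. The median-of-ratios size factor gives a library's typical level over loci above 0 in every library. It was 0.969 in hyperlipidemic replicate 2 and 1.22, 1.10 and 1.11 in hyperlipidemic replicates 1, 3 and 4. Its part in these low values was not tested, and the share of all loci lowest in each library was not taken. Hyperlipidemic replicate 2 had the highest osteoblast sum of its group, 1731 FPKM against 960.5 to 1123. In the normal group the same genes were mixed. Normal replicate 1, highest for both sums, was lowest for Cat, Sod1 and Gsta4 but highest for Gpx1 and Gclm. Normal replicate 2, lowest for both sums, was highest for Gclc and Sod1 but lowest for Prdx2 and Gclm. None of the 12 erythroid markers in the table was at 0 in all libraries of a group, and the part of red cell precursors in the values of Gclc, Cat, Sod1 and Prdx2 was not tested.

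**Figure D3:**
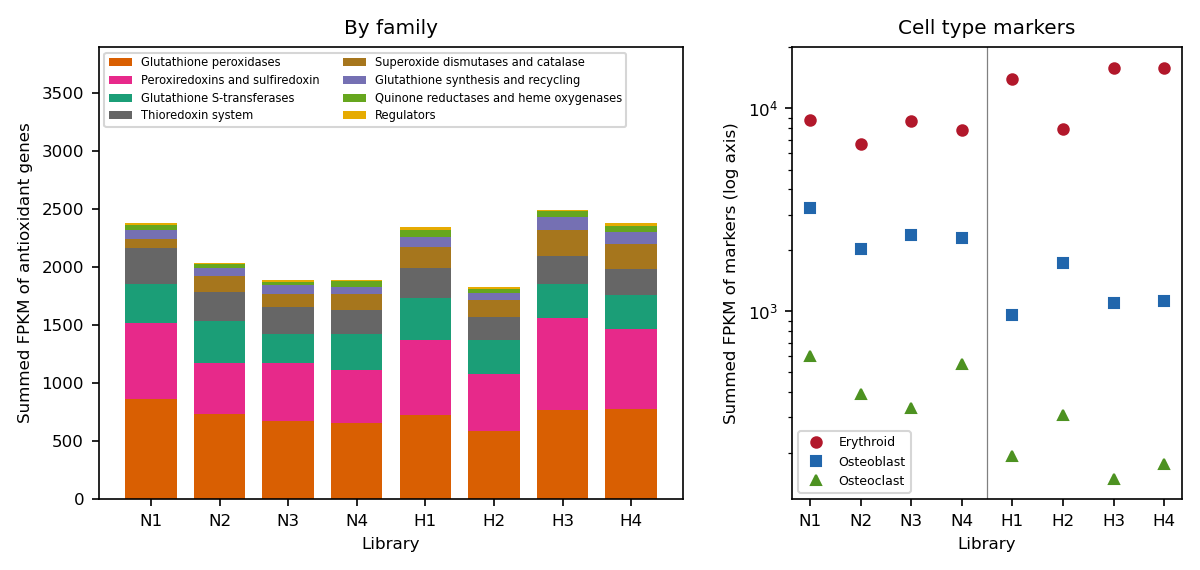
Left, summed FPKM of the members stacked by family in each library (N, normal; H, hyperlipidemic; replicates 1 to 4). Right, summed FPKM of erythroid, osteoblast and osteoclast markers on a log axis, in which H2 has the lowest erythroid and the highest osteoblast sum of the hyperlipidemic group.

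In the thioredoxin system no member passed, 3 of 6 had a log2 change above 0, and the groups overlapped in all 6. Txn1, cytosolic thioredoxin, was at 221, 169, 164 and 145 FPKM in normal and at 162, 117, 171 and 137 FPKM in hyperlipidemic libraries. The ranges overlapped (log2 change -0.25, SE 0.21, adjusted p = 0.613; 0.16 with equal total FPKM). Txnip, the arrestin-like protein that binds thioredoxin and responds to glucose, was at 42.1, 40.1, 32.8 and 27.0 FPKM in normal and at 55.3, 41.7, 42.2 and 46.5 FPKM in hyperlipidemic libraries. Of the hyperlipidemic Txnip values 3 were above all normal ones, that of replicate 3 narrowly (log2 change 0.39, SE 0.21, adjusted p = 0.443). Mitochondrial Txn2 was at 28.9 ± 3.40 and 24.9 ± 2.51 FPKM (log2 change -0.21, but 0.19 with equal total FPKM). The reductases, selenoproteins that recharge thioredoxin, were at 7.19 ± 2.02 and 7.34 ± 1.87 FPKM for Txnrd1, 3.49 ± 1.13 and 4.53 ± 1.13 for Txnrd2 and 1.21 ± 1.66 and 0.774 ± 0.469 for Txnrd3.

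Glutathione S-transferases, which couple glutathione to electrophiles and lipid peroxidation products, had 16 loci, of which 14 were tested, 10 with a log2 change above 0 and none called. The microsomal forms led in level. Mgst1 was at 112, 211, 104 and 173 FPKM in normal and at 158, 135, 117 and 120 FPKM in hyperlipidemic libraries, within one range (log2 change -0.13, adjusted p = 0.848; 0.28 with equal total FPKM). Mgst3 was at 98.8, 43.3, 47.1 and 43.1 FPKM in normal and at 75.2, 61.2, 73.5 and 76.9 FPKM in hyperlipidemic libraries. Without normal replicate 1, its highest value, the log2 change of Mgst3 was 0.67 (adjusted p = 0.0554) against 0.39 (0.549) with it. Mgst2 was at 35.9 ± 8.35 and 27.7 ± 8.89 FPKM, and the cytosolic Gstp1 at 25.8 ± 6.62 and 28.6 ± 7.79 FPKM.

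Gsta4, whose enzyme conjugates the lipid peroxidation product 4-hydroxynonenal, was at 5.37, 5.97, 9.64 and 8.40 FPKM in normal and at 13.1, 8.06, 27.0 and 21.6 FPKM in hyperlipidemic libraries. Hyperlipidemic replicate 2 alone lay within the normal range (2.38-fold between means; log2 change 1.05, SE 0.36, adjusted p = 0.275). Gsta4 lies on the same chromosome as Gclc (chromosome 8, 85497557 to 85518879), with 400 kb between them. Of the loci listed between them, Fbxo9, an F-box protein gene, had a log2 change of 0.76 (adjusted p = 0.298). Its groups were apart, at 2.74 to 6.58 FPKM in normal and 7.17 to 10.2 FPKM in hyperlipidemic libraries. Elovl5, a fatty acid elongase, had a log2 change of -0.25 (0.597) and Ick 0.023 (0.975). The pseudogene Rpl12-ps1 had -1.30 (0.300), with the hyperlipidemic libraries below the normal ones, and the short locus AABR07070810.1 had 0.13 (0.928).

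In the Gstt cluster (chromosome 20, 13760810 to 13825475) Gstt3, a theta class transferase, had normal values of 0, 0.104, 0 and 0 FPKM, while its hyperlipidemic values were 2.80, 1.23, 2.26 and 0.802 FPKM. The groups were apart at low values, without passing over all loci (log2 change of FPKM + 1 of 1.37, SE 0.34, adjusted p = 0.104; 0.0478 with equal total FPKM). With a pseudocount of 0.1 in place of 1 its log2 change was 3.83 (adjusted p = 0.0546). The authors' deposited table gives Gstt3 a fold change of 2.41 with a q-value of 0.521 and marks it as up, as Gclc, and the other 47 members as no change. Its neighbour Gstt1 was at 0.149, 0.411, 0 and 0 FPKM in normal and at 2.42, 0.303, 0.901 and 0 FPKM in hyperlipidemic libraries. These paralogs are alike in sequence and fragments could be split between them, so their values are uncertain.

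The same limit holds for the Gstm cluster (chromosome 2, 210685197 to 210839295), whose 5 loci gave no call. Gstm1, the most abundant of them, was at 40.2, 12.1, 6.59 and 20.8 FPKM in normal and at 12.4, 11.7, 10.9 and 10.7 FPKM in hyperlipidemic libraries, so that the normal values enclosed the hyperlipidemic ones. The others, Gstm4, Gstm5, Gstm6 and Gstm7, had group means between 0.0346 and 3.55 FPKM. Of the other transferases, Gsto2, Gstk1 and Gstz1 had group means between 1.07 and 6.55 FPKM and adjusted p between 0.604 and 0.895.

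Quinone reductases and heme oxygenases, common readouts of NRF2 activity, did not pass. Hmox1, which degrades heme and is also high in macrophages that take up red cells, was at 29.8, 27.4, 15.8 and 38.9 FPKM in normal and at 49.3, 24.2, 42.2 and 42.7 FPKM in hyperlipidemic libraries. All hyperlipidemic values but that of replicate 2 were above the normal range (log2 change 0.51, SE 0.31, adjusted p = 0.492). Nqo1 was at 3.35, 4.86, 1.54 and 4.73 FPKM in normal and at 4.96, 3.10, 0.318 and 5.10 FPKM in hyperlipidemic libraries, with overlap (adjusted p = 0.863). Nqo2 was at 2.21, 0.368, 0 and 3.17 FPKM in normal and at 0.315, 0.200, 0 and 0.0423 FPKM in hyperlipidemic libraries (log2 change -0.87, adjusted p = 0.446), the lowest log2 change among members. Constitutive Hmox2 was at 3.36, 7.31, 3.95 and 5.04 FPKM in normal libraries and 5.49, 5.21, 6.68 and 5.53 FPKM in hyperlipidemic libraries, within the normal range (log2 change 0.22, adjusted p = 0.726).

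The regulators themselves overlapped between the groups. Nfe2l2 was at 18.9, 6.82, 14.0 and 6.99 FPKM in normal and at 17.9, 15.7, 3.69 and 18.9 FPKM in hyperlipidemic libraries. Hyperlipidemic replicate 3 was the lowest of all 8 (log2 change 0.17, SE 0.49, adjusted p = 0.900). Keap1, which marks NRF2 for degradation, was at 1.5, 4.72, 3.69 and 2.92 FPKM in normal and at 4.73, 3.68, 1.87 and 3.04 FPKM in hyperlipidemic libraries (log2 change 0.061, adjusted p = 0.949). The sign of Keap1 turned under median-of-ratios scaling (-0.062) and quantile normalization (-0.11). NRF2 is controlled mainly through protein stability, which these values do not measure.

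**Figure D4:**
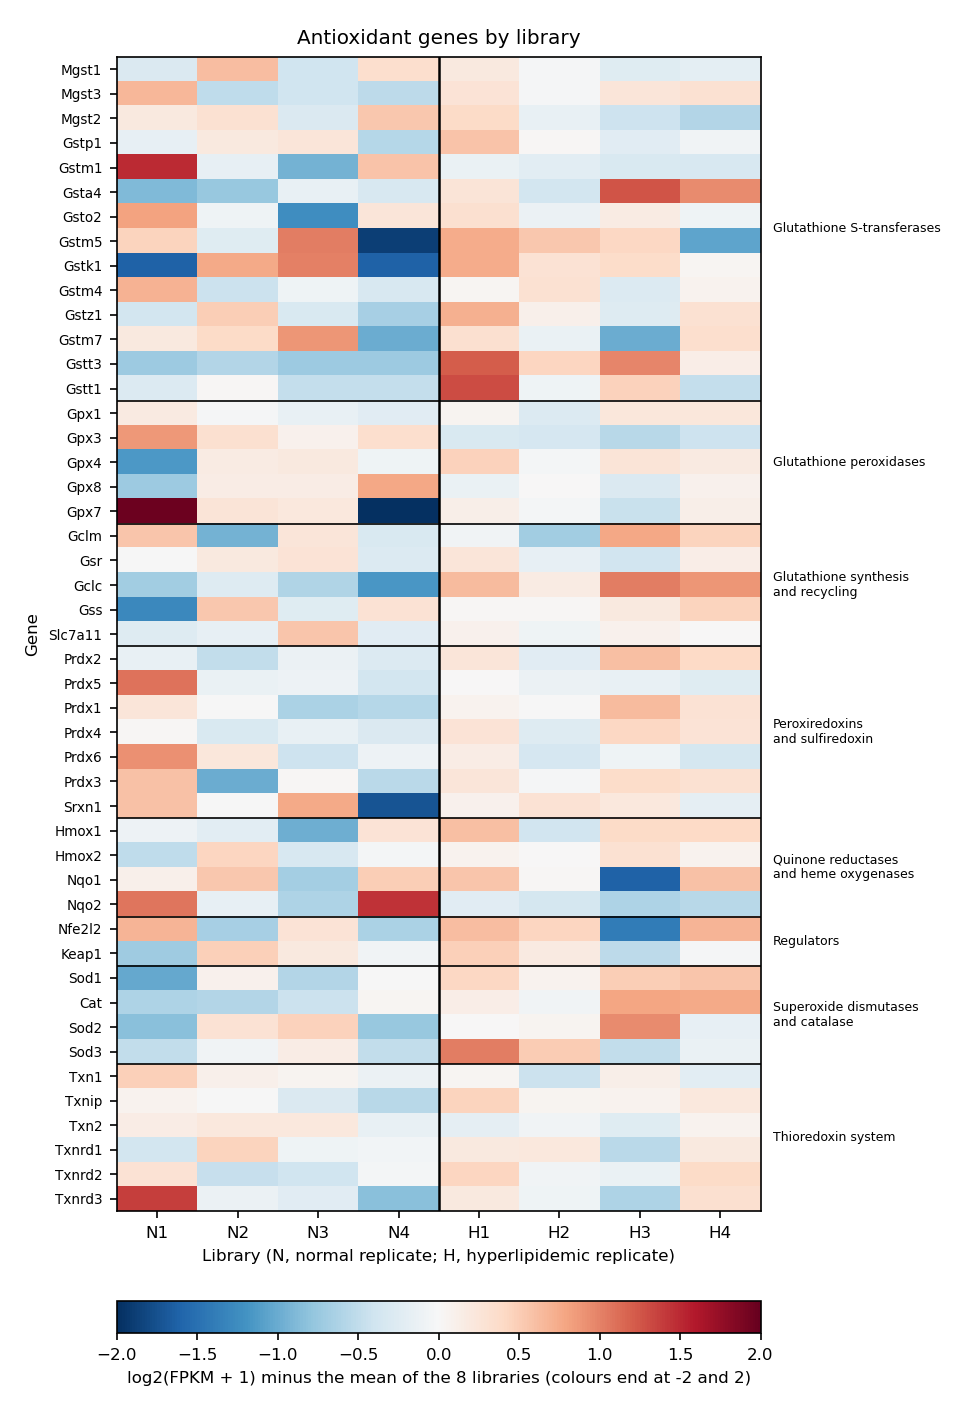
Log2(FPKM + 1) of the 47 tested members in each library, minus the gene's mean over the 8 libraries (red above, blue below; colours end at -2 and 2), by family. For 33 of the 47 members the spread is wider among N1 to N4, and Gclc, the member that rose, lies below its mean in all normal and above it in all hyperlipidemic libraries.

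Members varied more among normal than among hyperlipidemic libraries, as did loci in general. The SD of log2(FPKM + 1) was larger in the normal group for 33 of 47 members, 70.2%, beside 78.8% of all loci tested. The median SD of members was 0.506 among normal and 0.288 among hyperlipidemic libraries, beside 0.569 and 0.31 over all loci. Summed over all 49 members, FPKM was 2383, 2041, 1890 and 1890 in normal and 2345, 1830, 2491 and 2378 in hyperlipidemic libraries. The sums overlapped, with normal replicate 1 second highest of the 8 and hyperlipidemic replicate 2 the lowest. Glutathione peroxidases made up 34.9% to 36.3% of that sum in normal and 30.8% to 32.8% in hyperlipidemic libraries, without overlap. The share of the thioredoxin system was also lower without overlap, at 10.9% to 12.9% and 9.51% to 10.9%, though its ends nearly met, and that of dismutases and catalase was higher, at 3.28% to 7.35% and 7.67% to 9.22%. Shares of 1 total depend on each other and are given as a description.

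Promoter sequence was looked up because many members are known targets of NRF2, which binds the antioxidant response element with a small MAF protein. The core TGACNNNGC was searched on both strands in the 250 bases before each start in RefSeq promoters of build GRCr8, in which 40 of the 49 members had an entry. It was in 9 of 45 member windows, 20.0%, and in 10.1% of all 33469 windows. Of the 45 windows 26 lie partly or wholly inside the annotated span of their gene, since an entry follows a single start. Each match is given with 6 flanking bases on either side, read on the strand of the match with the core in capitals, so that the cores can be compared.
Gclm, beginning 172 bases before the start: agacaaTGACTAAGCagaaac
Prdx1, 135 bases before: ggggtaTGACTCAGCgctttc
Gstp1, 61 bases before: ctgtgtTGACTCAGCatccgg
Txnrd1, 78 bases before: tcagaaTGACAAAGCaaaaat
Gstm7, 14 bases before: ctagatTGACACAGCctgtcc
Hmox2, 95 bases before: ccaagcTGACACTGCcttcca
Sod2, 35 bases before: aggcgcTGACCCTGCcggcag
Gstm5, 113 bases before: gccaagTGACCACGCggaggg
Gstm5, 53 bases before: tcgcgtTGACCCCGCccacag
Gstz1, 231 bases before: actcctTGACGGGGCagcgga
Prdx1 and Gstp1 share the same core, and none of the 9 genes with a match passed the expression test. Of the windows with a match, those of Gstp1 and Txnrd1 lie wholly inside their gene's span. Those of Gstm7, Gstz1 and Hmox2 lie partly inside, by 46, 30 and 28 bases. Gclc had no match in its window, of which 225 bases lie inside the gene's span. A match is not shown to be a bound site, and no match says only that these letters are not in the window.

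The promoter of the partner subunit is shown whole, since it holds the match closest in role to the gene that rose, beside that of Gpx3, whose groups were apart in the other direction and which has no match. Both windows lie wholly before the annotated gene, on the plus strand, with the core in capitals.
Gclm, chr2:213031885-213032134 on GRCr8: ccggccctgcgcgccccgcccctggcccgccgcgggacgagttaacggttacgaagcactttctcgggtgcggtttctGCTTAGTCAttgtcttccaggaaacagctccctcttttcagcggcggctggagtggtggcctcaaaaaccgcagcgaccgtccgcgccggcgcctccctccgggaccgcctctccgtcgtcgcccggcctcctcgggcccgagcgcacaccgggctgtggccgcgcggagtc
Gpx3, chr10:39529085-39529334 on GRCr8: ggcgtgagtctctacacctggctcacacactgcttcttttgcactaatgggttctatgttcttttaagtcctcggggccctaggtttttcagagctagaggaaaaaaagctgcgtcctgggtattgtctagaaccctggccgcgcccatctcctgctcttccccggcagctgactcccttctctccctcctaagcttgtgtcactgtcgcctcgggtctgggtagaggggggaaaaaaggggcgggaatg
The Gclm window is 70.4% G and C and the Gpx3 window 55.2%.

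Other RNAs at these loci were few. Of 774 circular RNAs in the deposited table, 2 come from a member. The Gsr circle had normal values of 0, 0.499, 0 and 0 FPKM and hyperlipidemic values of 0.417, 0.355, 0.590 and 0.544 FPKM. The Prdx5 circle was at 0, 2.31, 0 and 0 FPKM in normal and at 1.38, 1.6, 0 and 2.16 FPKM in hyperlipidemic libraries. In both, normal replicate 2 was the only normal library above 0. Over all 19120 gene loci, 2391 were at 0 in that library against 5874, 4913 and 6807 in normal replicates 1, 3 and 4, and 2347 to 5697 in hyperlipidemic libraries. The part of this difference in the zeros of the circles, of Gstt3 and of the lncRNAs was not tested.

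Of 14625 long non-coding RNAs, 12 overlap the locus of a member. The mean was higher in the hyperlipidemic group for 10 of the 12 and lower for 2, beside 59.5% of all lncRNAs higher. Groups were apart in 1, the one over Prdx3, with hyperlipidemic libraries above, as in 2.85% of all lncRNAs. The one within Gclc (chromosome 8, 85071597 to 85077968) was listed at 0 in 3 normal libraries and at 1.63 FPKM in normal replicate 2, and at 2.20, 1.48, 4.78 and 4.93 FPKM in hyperlipidemic libraries. Those overlapping Prdx3 and Txnrd1 had the same 3 normal libraries at 0, with 5.12, 3.06, 13.4 and 5.38 FPKM and 1.66, 1.99, 5.30 and 4.66 FPKM in the hyperlipidemic ones. The 2 with a lower mean overlap Txnip (11.1, 1.91, 18.9 and 0.123 FPKM in normal and 1.39, 1.03, 2.65 and 0 FPKM in hyperlipidemic libraries) and Gsr (10.8, 3.63, 0 and 0 FPKM against 2.09, 1.91, 0 and 0 FPKM). The most abundant, over Gpx4, had means of 62.9 and 64.4 FPKM. It runs from 12414253 to 12764695 on chromosome 7, far beyond Gpx4, and also covers Cfd, Elane and Prtn3. The one over Txnip runs from 198621890 to 198812885 on chromosome 2, far beyond that gene. The one over Prdx3 runs from 282240501 to 282275572 on chromosome 1, past the end of Prdx3 at 282251257. The one over Gsr runs from 62176692 to 62205016 on chromosome 16, and Gsr starts at 62197617. Their values are not particular to these members. The table gives no strand, so fragments of the gene and of an overlapping transcript cannot be told apart here.

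Genes around the pathway were described by lists, with members of the antioxidant set left out. Among NADPH-supplying enzymes, 8 of 11 tested had a log2 change above 0 and none passed (median 0.23). The pentose phosphate enzyme Taldo1 was at 26.2 FPKM in normal replicate 1 and between 92.9 and 136.9 FPKM elsewhere (log2 change 0.69, adjusted p = 0.498). Malic enzyme Me2 had a log2 change of 0.50 (0.444), and the folate enzymes Mthfd1 and Mthfd2 had 0.51 (0.450) and 0.38 (0.549). In the list of glutaredoxins, thioredoxin relatives and methionine sulfoxide reductases, 11 of 18 were above 0 and none passed (median 0.17). Msrb3, a methionine sulfoxide reductase, was at 1.86, 2.21, 2.12 and 3.81 FPKM in normal and at 9.65, 8.61, 4.92 and 6.38 FPKM in hyperlipidemic libraries. Its groups were apart, and it did not pass (log2 change 1.25, SE 0.29, adjusted p = 0.0841). Txnl1, a thioredoxin-like protein, had a log2 change of 0.48 (0.411), Sesn1, a sestrin, 0.44 (0.479) and the mitochondrial glutaredoxin Glrx5 1.03 (0.491), with Glrx5 at 4.59 FPKM in normal replicate 1 and between 40.0 and 71.0 FPKM elsewhere.

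The list set up for glutathione turnover and transport had 11 of 15 above 0 and none called (median 0.33). These counts include the carboxylase gene Ggcx (log2 change -0.31), which does not belong to glutathione turnover. Hagh, the second enzyme of methylglyoxal removal, was at 12.3, 16.4, 23.1 and 17.2 FPKM in normal and at 29.2, 20.3, 24.5 and 30.0 FPKM in hyperlipidemic libraries (log2 change 0.58, adjusted p = 0.339). Chac2, a glutathione-degrading enzyme, was listed at 0 in normal replicate 1 and was at 6.67, 13.2 and 8.10 FPKM in the other normal and between 13.3 and 21.0 FPKM in hyperlipidemic libraries (log2 change 1.56, adjusted p = 0.371). Ggct, which acts on gamma-glutamyl peptides, had a log2 change of 1.36 (0.337) and the glyoxalase Glo1 0.41 (0.530). Regulators of the response had 9 of 13 above 0 and none called (median 0.41), among them the small MAF gene Mafg (log2 change 0.87, adjusted p = 0.434) and the KEAP1 partner Cul3 (0.76, 0.409). Mafk, another small MAF gene, had 1.00 (0.418) and Fbxw7, a ubiquitin ligase subunit, 0.66 (0.464).

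Further targets of the antioxidant response had 12 of 17 above 0 and none called (median 0.24). Blvrb, a biliverdin reductase abundant in red cells, was at 14.2, 9.79, 14.6 and 8.94 FPKM in normal and at 19.6, 14.3, 23.0 and 16.5 FPKM in hyperlipidemic libraries (log2 change 0.60, adjusted p = 0.341). Slc40a1, the iron exporter ferroportin, had a log2 change of 0.83 (adjusted p = 0.353), the biliverdin reductase Blvra 0.73 (0.410) and the metallothionein Mt3 -0.96 (0.370). Of genes for selenoprotein synthesis and other selenoproteins, 8 of 22 listed names were in the table, 6 had a log2 change above 0 and none passed (median 0.13). Sephs1 had 0.83 (adjusted p = 0.358), the selenocysteine elongation factor Eefsec 0.67 (0.426), Sepw1 -0.62 (0.486) and Secisbp2 0.24 (0.816).

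Among oxidases that produce superoxide or use peroxide, 7 of 11 tested were above 0 (median 0.030), and 1 rose. Epx, the peroxidase of eosinophil granules, was at 126, 165, 128 and 104 FPKM in normal and at 241, 266, 242 and 252 FPKM in hyperlipidemic libraries. The groups were well apart (log2 change 0.95, SE 0.20, adjusted p = 0.0485). The Epx call held under 8 of 20 alternatives and ended under 12, among them leaving out normal replicate 3 or 4 or any hyperlipidemic library (adjusted p from 0.0745 to 0.179). Rac2 and Ncf4, parts of the phagocyte oxidase, had log2 changes of -0.60 (adjusted p = 0.378) and -0.52 (0.408).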

How the data were processed

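Total RNA (3 µg) was depleted of ribosomal RNA and sequenced from dUTP libraries as 150 bp read pairs, per the labels' protocols. The submitters' processing notes name HISAT2 2.1.0, StringTie 1.3.3b, bcl2fastq 1.8.4 and the build Rnor_6.0; roles, annotation, filters, counting strand and the test have no source here. The authors deposited FPKM per library for gene loci, lncRNAs and circRNAs. Their deposited gene table also holds a fold change (ratio), its log2 value, a p-value and a q-value, hyperlipidemic over normal. FPKM keeps no count, so depth is unknown. Total gene FPKM in order of replicate was 510668, 857479, 709088 and 906019 in normal libraries, and it ran from 496578 to 584474 in hyperlipidemic libraries. Only normal replicate 1 lay within the hyperlipidemic range. Further sheets of the gene workbook were not used.

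Loci with a mean of at least 0.5 FPKM were tested with limma 3.58.1 in R 4.3.3 on log2(FPKM + 1), using a trended prior variance, and the code was checked on simulated data. Such log2 changes understate the change of low genes. Sums, ratios, lists, lncRNAs and circRNAs were described without a test of their own. Members and lists were chosen with earlier results of these data known. Given for every library were members called or with groups apart, the 2 most abundant of each family, the 3 largest log2 changes each way and central members of each family. Of each related list the 4 genes with the smallest p were named, except 1 gene that is not reported here. Alternatives were another pseudocount, other filters, only loci over 1000 bp, 3 other scalings, a replicate block, no trend, array weights and left-out libraries.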

Additional observations from a re-analysis of the deposited data

Results flagged for a closer look

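In 94 groups of 4 values (47 members in each group, as log2(FPKM + 1)), 5 held a library far from the other 3, its gap to the nearest taking up most of the range by Dixon's test. Chance gives about 1 in 20. In the hyperlipidemic group, replicate 3 was low for Nfe2l2, at 3.69 FPKM against 15.7 to 18.9, and for Txnrd1, at 4.54 FPKM against 8.23 to 8.35. In the normal group, replicate 1 was high for Mgst3, at 98.8 FPKM against 43.1 to 47.1, replicate 3 was high for Slc7a11, at 1.23 FPKM against 0.273 to 0.355, and replicate 2 was the only library above 0 for Gstt3, at 0.104 FPKM.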

How the results depend on the processing

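Over all loci 191 genes were called. The count was 107 with no filter, 114 among loci above 0 in all 8 libraries, 3 among loci over 1000 bp and 308 with equal total FPKM, and 109 to 215 on leaving out each library. Of members, 1 was called, against 0 with no filter, among loci over 1000 bp, with the replicate block, with no trend in the prior variance and with replicate 1 of both groups left out, 3 with equal total FPKM, and 0 to 1 on leaving out each library. Gclc kept its direction in all 20 alternatives (log2 change 1.17 to 1.78) and passed in 9 (adjusted p from 0.0120 to 0.222 over all). Equal totals moved the median log2 change of all loci from 0.18 to 0.54 and that of members from 0.20 to 0.55, median-of-ratios scaling that of all loci to 0.052 and quantile normalization to 0.053. With equal totals the log2 ratio of family sums was 0.35 for transferases, 0.31 for peroxidases, 0.69 for peroxiredoxins, 1.19 for dismutases and catalase, 0.21 for the thioredoxin system and 0.49 for all members, which was -0.044 under median-of-ratios scaling, and that of peroxidases was 0.18 under quantile normalization.

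Of 923 values of members, 841 kept direction and side of the threshold and 69 turned sign, in 25 members. With equal totals these were Gpx7 (0.20), Gpx8 (0.21), Gsr (0.31), Mgst1 (0.28), Mgst2 (0.020), Nqo1 (0.018), Prdx5 (0.16), Prdx6 (0.080), Txn1 (0.16), Txn2 (0.19) and Txnrd3 (0.013). Under median-of-ratios scaling they were Gpx1 (-0.062), Gstm4 (-0.044), Gsto2 (-0.013), Gstp1 (-0.016), Keap1 (-0.062), Slc7a11 (-0.0068) and Txnrd1 (-0.12), under quantile normalization Keap1 (-0.11), Mgst1 (0.046), Slc7a11 (-0.29), Srxn1 (-0.0052) and Txnrd1 (-0.085), with array weights Hmox2 (-0.0065), Keap1 (-0.13), Txnrd1 (-0.10) and Txnrd3 (0.17), with a pseudocount of 0.1 Gpx7 (0.51) and Txnrd3 (0.19), and with replicate 1 of both groups left out Gpx7 (0.44), Gstp1 (-0.049), Keap1 (-0.32), Prdx5 (0.028), Slc7a11 (-0.054), Txnrd1 (-0.15) and Txnrd3 (0.26). On leaving out each library signs turned within -0.056 to 0.49 for Gclm, -0.87 to 0.50 for Gpx7, -0.44 to 0.056 for Gpx8, -0.19 to 0.025 for Gsr, -0.025 to 0.58 for Gss, -0.056 to 0.32 for Gstm4, -0.25 to 0.73 for Gstm5, -0.61 to 0.053 for Gstm7, -0.25 to 0.43 for Gsto2, -0.020 to 0.25 for Gstp1, -0.17 to 0.24 for Keap1, -0.28 to 0.054 for Mgst1, -0.035 to 0.66 for Nfe2l2, -0.49 to 0.27 for Nqo1, -0.42 to 0.071 for Prdx5, -0.031 to 0.24 for Slc7a11, -0.34 to 0.49 for Srxn1, -0.093 to 0.21 for Txnrd1 and -0.40 to 0.34 for Txnrd3. The cause was not tested. Each gene's group mean was subtracted from its log2(FPKM + 1) values, and the remaining deviations were compared between same-numbered libraries. These deviations correlated weakly (r from 0.0107 to 0.129 across genes), so the numbers are not read as pairs. With the replicate block 151 genes were called over all loci, and Gclc had an adjusted p of 0.128.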

Other observations

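Hyperlipidemic replicate 3 held the highest value of the 8 libraries for 8 of the 47 tested members and the lowest for 9. The 8 were Gclc (32.9 FPKM), Cat (79.3), Prdx2 (547), Prdx1 (88.8), Prdx4 (38.3), Gsta4 (27.0), Sod2 (32.7) and Gclm (56.8). The 9 were Nfe2l2 (3.69), Txnrd1 (4.54), Nqo1 (0.318), Gpx3 (78.8), Gsr (18.1) and Txn2 (22.4), and, listed at 0 there as in other libraries too, Nqo2, Sod3 and Gstm7. This library was picked out after its values were seen.

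Hyperlipidemic replicate 1 had the highest value of its group for 22 of the 47 tested members and the lowest for 1. It also had the highest adipocyte, chondrocyte and muscle marker sums of its group, whose part in these counts was not tested. Replicate 2 had the highest for 3 and the lowest for 18, replicate 3 the highest for 11 and the lowest for 18, and replicate 4 the highest for 11 and the lowest for 10. In the normal group, replicate 1 was the highest for 18 and the lowest for 14, replicate 2 for 11 and 7, replicate 3 for 13 and 12, and replicate 4 for 5 and 19, with 8 members listed at 0 in replicate 4. In order of replicate, the median-of-ratios size factors were 0.943, 1.08, 1.03 and 0.851 in normal libraries. They were 1.22, 0.969, 1.10 and 1.11 in hyperlipidemic libraries. Such counts were not taken over all loci, and the part of the size factors in them was not tested.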
